A study of Mus musculus with 4 samples.

Results

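Metabotropic glutamate receptors are G protein-coupled receptors that sense glutamate at synapses and on glia. The m6A peaks of 6 of their genes, *Grm2*, *Grm3*, *Grm4*, *Grm5*, *Grm7* and *Grm8*, were examined in mouse spinal cord after nerve injury and after sham surgery. Members were chosen by gene name, and every row of the deposited tables that carries a member name was taken. All 6 genes had peaks, with 18 of the 33556 peaks in the CCI list, 26 of the 34406 peaks in the sham list and 4 of the 4812 rows in the table of peaks that differ between the groups. In all, 13558 gene names appear in the tables.

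MeRIP-seq enriches fragments of poly(A) RNA with an antibody against m6A (the IP library) and reads them beside the unenriched fragments (the input library). In the chronic constriction injury (CCI) group, silk ligatures were placed loosely on the sciatic nerve of C57BL/6J mice aged 6 to 8 weeks, and in the sham group the same surgery was done without ligature. Spinal cord was taken on day 7, and each group had 1 IP library and 1 input library. No difference between CCI and sham therefore has a replicate check, and none was tested here. The authors' own p-values for CCI against sham were not used. The number of mice behind a library is not given in the sources used here. The files hold no read counts, so depth is unknown and the values carry no interval. They also hold no expression level, and the part of transcript amount in any difference was not tested.

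The receptors fall into 3 groups by their coupling. Group I, here represented by *Grm5* (mGluR5), signals through Gq to phospholipase C and calcium release and sits mainly on postsynaptic neurons. Group II (*Grm2* and *Grm3*) and group III (*Grm4*, *Grm7* and *Grm8*) couple to Gi and Go, lower cyclic AMP and act largely as brakes on transmitter release. *Grm3* is also made by astrocytes, and mGluR5 in the dorsal horn is well known for its part in pain sensitization. m6A on mRNA is bound by reader proteins that act on splicing, export, stability and translation, and it is often placed in long internal exons and near stop codons.

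The tissue label was checked by which marker genes had a peak. All 6 neuronal, 3 oligodendrocyte, 3 astrocyte and 4 microglial markers and all 4 spinal Hox genes had a peak in both lists. None of the 3 skeletal muscle markers had a peak in either list. Among forebrain markers, *Emx1* had no peak in either list and *Neurod6* had a peak in both. Of 3 markers of the dorsal root ganglion, *Scn10a* and *Mrgprd* had peaks in sham and none in CCI, and *Trpv1* had none in either.

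Across the family, most sites were shared, and the sham list held more peaks than the CCI list. A shared pair was formed where a CCI and a sham peak were each other's best partner by exonic overlap of at least 1 bp. Each of the 18 CCI peaks formed such a pair, so 0 of 18 CCI peaks lacked a sham partner, beside 12.3% of all CCI peaks. Of the 26 sham peaks, 6 had no overlapping CCI peak, beside 16.1% of all sham peaks. Their median fold enrichment was 3.18, beside 4.13 for all sham peaks without an overlapping CCI peak. Another 2 sham peaks lay inside a CCI peak that was paired with a neighbouring sham peak. All 6 genes had more sham than CCI peaks. In *Grm3* this came only from such a wider CCI peak, with 0 sites in sham alone. More sham peaks were found for 22.6% of the 11761 genes with peaks in both lists (21.4% had more CCI peaks) and for 29.8% of the 7312 of them that had, like the members, 3 to 9 peaks in all. The exonic bases under peaks differed less, with 7595 in sham and 7074 in CCI over the 6 genes, because the CCI peaks were often wider. *Grm3* had more covered bases in CCI (1259 against 1052 in sham), and the other 5 genes had fewer, beside 54.2% of all genes in both lists with fewer. The ganglion markers *Scn10a* and *Mrgprd* had peaks in sham alone as well, and their part in the sham peaks of the receptors was not tested.

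Fold enrichment is the authors' ratio of IP over input for a peak. It was moderate in most receptor peaks, from 1.96 to 36.0 with a median of 4.35 in CCI and from 1.58 to 18.6 with a median of 3.74 in sham. The medians of all peaks were 5.73 and 5.70. Only 7 of the 18 CCI peaks and 4 of the 26 sham peaks of the family exceeded the median of their list. By fold enrichment, *Grm2* held the strongest peak in each list. The log10 false discovery rate of IP against input for these *Grm2* peaks was -3.6 in sham and -14.8 in CCI. By that score the *Grm5* 3′-UTR peak led both lists of the family, with -196 in sham and -134 in CCI.

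Over the 18 shared pairs, the median log2 ratio of fold enrichment (CCI over sham) was 0.23, beside 0.03 over all 27380 pairs. It was above 0 in 13 pairs and below 0 in 5, beside 51.8% of all pairs above 0. The ratios ran from -0.88 in the 5′ region of *Grm4* to 1.84 at the *Grm8* peak labelled 5′-UTR. The central 95% of all pairs ran from -1.59 to 1.75, a range that held every receptor pair but that of *Grm8*. In 3 pairs, in *Grm2*, *Grm7* and *Grm8*, the CCI value was at least 2-fold higher, beside 8.59% of all pairs. None was at least 2-fold lower, beside 7.25% of all pairs. The *Grm2* pair sat exactly on the 2-fold limit (log2 ratio of 1), and the nearest pair under it was a 3′-UTR pair of *Grm7* (0.51). At a limit of 1.5-fold, 3 pairs were higher and 3 lower, beside 18.8% and 16.4% of all pairs.

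**Figure D1:**
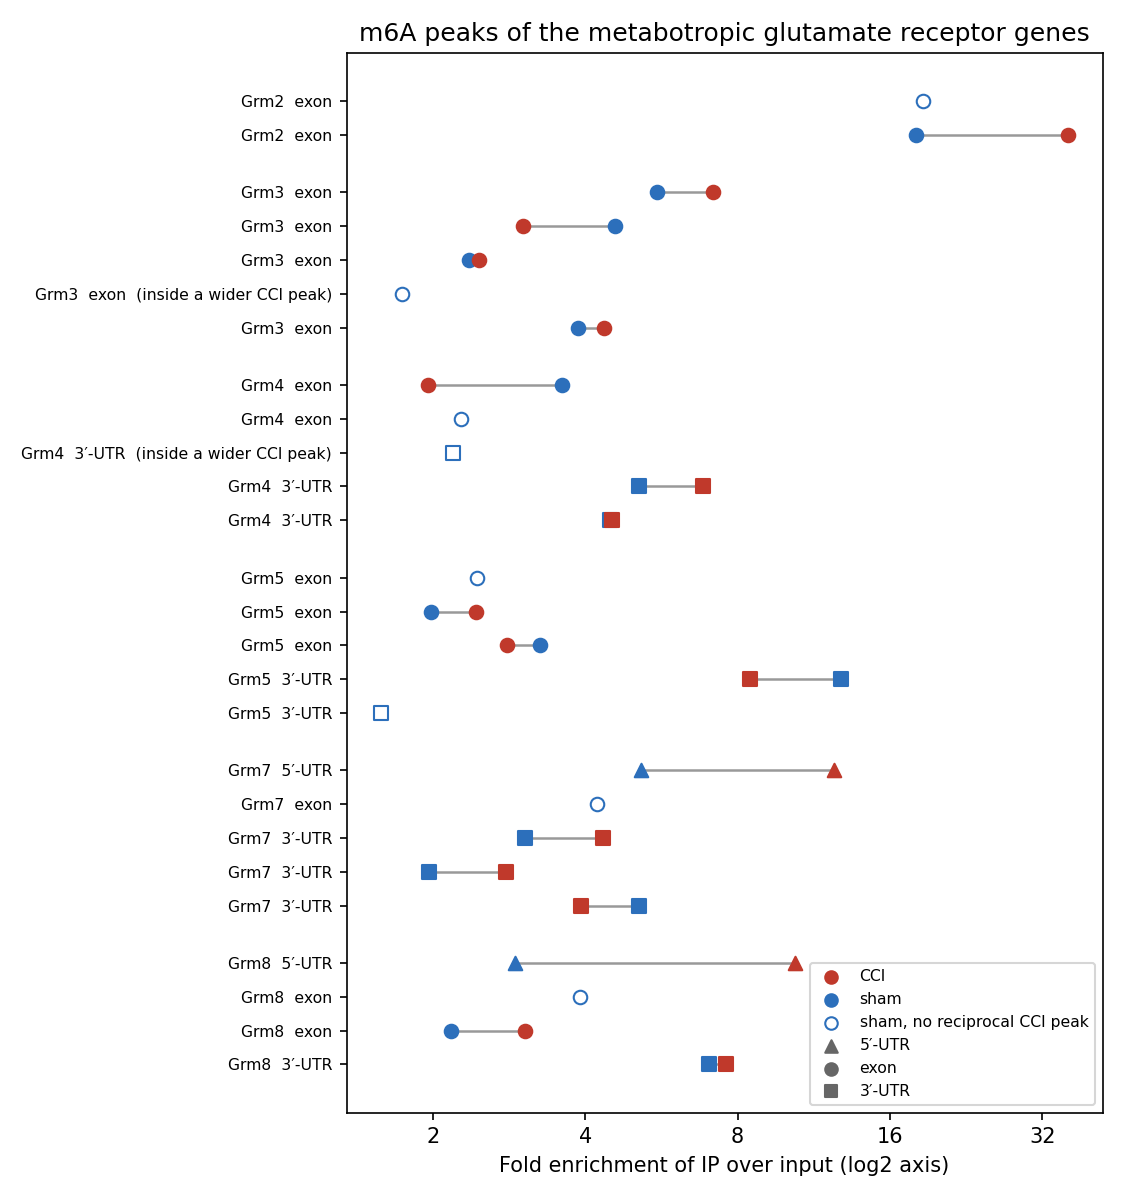
Fold enrichment of IP over input (log2 axis) for every peak of the 6 receptor genes, ordered 5′ to 3′ within a gene. Lines join shared pairs (red CCI, blue sham), open symbols are the 8 sham peaks with no reciprocal CCI peak, and symbol shape is the region (that of the CCI peak in a pair). The long lines to the right are *Grm2* and the 5′-UTR pairs of *Grm7* and *Grm8*.

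**Figure D2:**
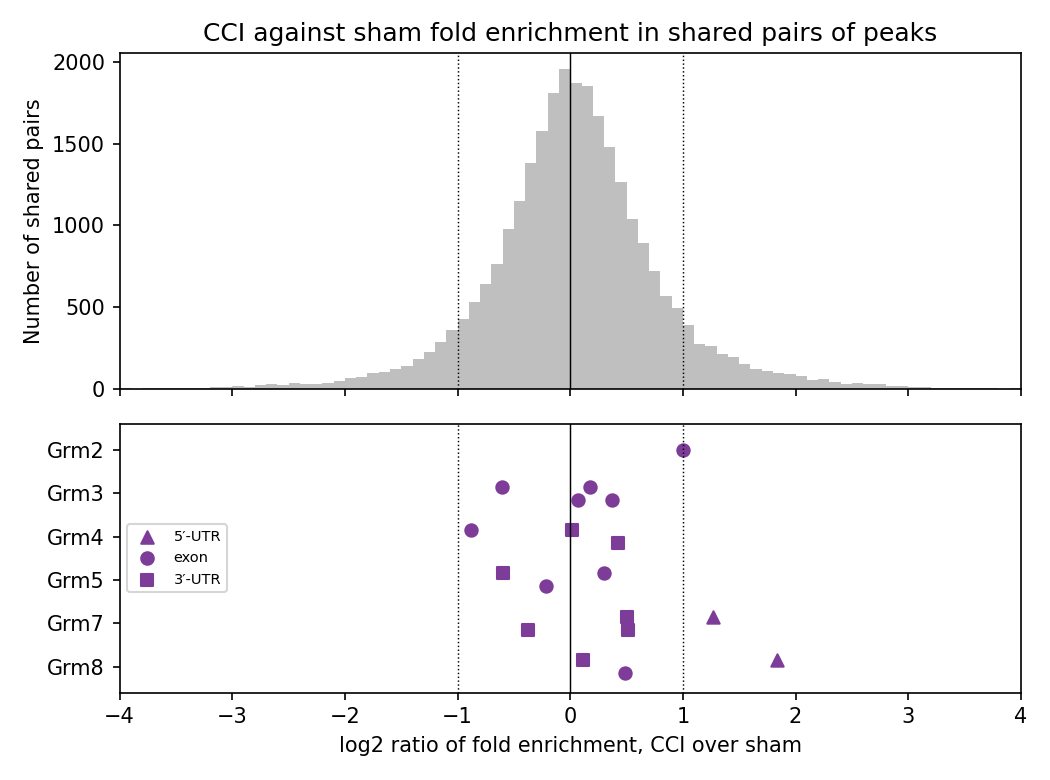
The upper panel counts all 27380 shared pairs by log2 ratio of CCI over sham fold enrichment, without the 14 pairs beyond 4 in either direction, and the lower panel places the 18 receptor pairs on the same axis, offset vertically where they crowd. Dotted lines mark a 2-fold difference, which 3 receptor pairs reach on the CCI side and none on the sham side.

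*Grm2*, a presynaptic autoreceptor gene (ENSMUSG00000023192), lies on the minus strand of chromosome 9 from 106643117 to 106656080. Its peaks were all labelled exon in the deposited annotation, with none in a UTR. The shared peak covered 300 exonic bases in CCI (106648185 to 106650653, in 2 blocks of 42 and 258 bases) and 270 in sham (106648185 to 106650623), and was annotated in exon 3 of 6. Its fold enrichment was 18.0 in sham and 36.0 in CCI, a log2 ratio of 1. The CCI peak was in the top 5.85% of its list and the sham peak in the top 14.8%. A further sham peak of 151 bases in the same exon, from 106650712 to 106650862, had a fold enrichment of 18.6 and no CCI counterpart. It lay upstream of the CCI peak, after a gap of 58 bases. No region of *Grm2* was listed as differential.

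*Grm3*, the group II receptor of both neurons and astrocytes (ENSMUSG00000003974), spans 9485541 to 9725170 on the minus strand of chromosome 5. All of its peaks, 4 in CCI and 5 in sham, lay in exons 2 to 4 of 6, and none in a UTR. In exon 2, the CCI value of 7.17 exceeded the sham value of 5.54 (log2 ratio 0.37). Exon 3 held neighbouring sites. The site starting at 9570528 had 4.59 in sham and 3.01 in CCI (log2 ratio -0.61). The site from 9570079 to 9570259, with identical borders in the lists, was nearly level at 2.36 in sham and 2.47 in CCI (log2 ratio 0.07). In exon 4, CCI had a single peak of 628 bases (9511849 to 9512476) with a fold enrichment of 4.36. Sham had a peak of 270 bases at 3.87 and a separate one of 181 bases at 1.74 over the same stretch. The part that the table lists as differential, from 9511849 to 9512118, covers the weaker sham peak and the downstream end of the wide CCI peak. The log2 ratio of the wide CCI peak was 0.17 to the stronger sham peak and 1.33 to the weaker, so the value at this site depends on which borders are compared.

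Group II genes had no peaks labelled 3′-UTR. *Grm2* and *Grm3* had 0 peaks annotated there in either list, whereas *Grm4*, *Grm5*, *Grm7* and *Grm8* had 7 in CCI and 8 in sham. This contrast rests on the label, which can differ at a shared site. A *Grm4* peak of 1315 exonic bases was labelled 3′-UTR in CCI, and its sham partner of 927 bases exon 7 of 9. A *Grm7* CCI peak labelled 3′-UTR ended 138600 genomic bases before the end of its transcript. Genes without a 3′-UTR peak made up 20.5% of all genes in both lists. Over the family, 9 of 18 CCI peaks and 15 of 26 sham peaks were annotated in an exon, beside 35.5% and 35.1% of all peaks in these lists.

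*Grm4* (ENSMUSG00000063239), which encodes a presynaptic group III receptor, spans 27422387 to 27503304 on the minus strand of chromosome 17. It held 2 of the 4 receptor regions listed as differential. At the 5′ end, sham had a peak of 300 bases (27502888 to 27503187, 5′-UTR) with a fold enrichment of 3.60. The CCI peak there was narrower, 150 bases (27502978 to 27503127, annotated in exon 1 of 9), with a fold enrichment of 1.96. The log2 ratio of -0.88 was the lowest of the family and stood at the 9.24 percentile of all pairs. The same 300 bases are a row of the differential table.

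The other listed region of *Grm4* was in the 3′-UTR, and there the lists hardly differed. Fold enrichment was 4.48 in sham (27422775 to 27426405, 509 exonic bases) and 4.52 in CCI (27425927 to 27426465, 539 bases), a log2 ratio of 0.01. The region is thus in the differential table although the fold enrichments of the lists are nearly equal. Upstream of it, CCI had 1 peak of 1315 exonic bases in 4 blocks (27426734 to 27438327), the longest receptor peak in either list and in the top 1.43% of CCI peaks by length. Its fold enrichment was 6.85. Sham had a peak of 927 bases over 2 of these 4 blocks at 5.10 and a separate one of 210 bases over the other 2 at 2.19. A sham peak of 61 bases, from 27473170 to 27473230, at 2.27 had no CCI counterpart.

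*Grm5* (ENSMUSG00000049583), the Gq-coupled receptor, spans 87584168 to 88134907 on the plus strand of chromosome 7 over 2 annotated transcripts. Its main peak was a long 3′-UTR site, and this was lower in CCI. Fold enrichment was 12.8 in sham over 1169 bases (88130563 to 88131731) and 8.46 in CCI over 1259 bases (88130503 to 88131761). The log2 ratio was -0.60, at the 15.9 percentile of all pairs, and the site was not listed as differential. In exon 9 of 10, the CCI value was 2.43 against 1.98 in sham at the upstream site (log2 ratio 0.30) and 2.80 against 3.26 at the downstream site (log2 ratio -0.22). These exonic values were low in both lists. Another 2 sham peaks had no CCI counterpart, 1 of 151 bases in exon 3 of 4 of the shorter transcript (87602611 to 87602761) at 2.45 and 1 of 121 bases in the 3′-UTR (88133948 to 88134068) at 1.58. *Grm5* was the sole receptor of the 6 whose strongest peak was lower in CCI, beside 49.8% of all genes in both lists whose strongest peak was higher.

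*Grm7* (ENSMUSG00000056755), which encodes a receptor of the presynaptic active zone, lies on the plus strand of chromosome 6 from 110645581 to 111567230 over 2 annotated transcripts. At its 5′-UTR peak, which ran from 110645581 to 110645850 in CCI and sham alike, fold enrichment was 5.15 in sham and 12.4 in CCI, a log2 ratio of 1.27, at the 94.6 percentile of all pairs. After a gap of 178 bases downstream, within exon 1 of 10, sham had another peak of 240 bases (110646029 to 110646268) at 4.23 and CCI had none. The downstream peak, which has no ratio for want of a CCI peak, was listed as differential. The 5′-UTR peak was not. Of the 6 sham peaks with no CCI partner in the family, the downstream peak was the only 1 that overlapped a row of the differential table, beside 4.48% of all such sham peaks.

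The sites of *Grm7* labelled 3′-UTR were annotated on different transcripts. On ENSMUST00000174018, which ends at 111497090, the site starting at 111358161 in CCI had a fold enrichment of 4.33, against 3.04 in sham (log2 ratio 0.51). The next site on it, in 2 blocks split by an intron, had 2.79 in CCI and 1.97 in sham (log2 ratio 0.50). In CCI the first of these peaks ended 138600 genomic bases before the end of that transcript. Of the next CCI peak, 412 bases lay before the intron and 7 after it. The 3′-UTR label may thus not describe the place of these peaks on that transcript. On ENSMUST00000172951, which ends 807 bases after the site, fold enrichment was 3.93 in CCI and 5.11 in sham (log2 ratio -0.38). Of the sites labelled 3′-UTR, those annotated on the first transcript were thus higher in CCI and that on the second lower, each within 1.5-fold. The former also lie within the genomic span of the second transcript (110645582 to 111567230), so a difference between the transcripts is not shown.

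*Grm8* (ENSMUSG00000024211), another presynaptic group III receptor, spans 27275119 to 28134545 on the minus strand of chromosome 6. Its peak labelled 5′-UTR lies mostly past the start of the transcript it is annotated on (ENSMUST00000090512). The distance from that start to the upstream edge of the peak was -114 bases in CCI and -84 in sham, where negative values are outside the transcript. This peak gave the largest ratio of the family, with 2.91 in sham (28126159 to 28126279) and 10.4 in CCI (28126189 to 28126309). The log2 ratio was 1.84, at the 97.8 percentile of all pairs. Both calls were weak. The log10 false discovery rate of IP against input was -1.75 in sham and -2.02 in CCI, the nearest to 0 of all receptor peaks in each list, and the peaks shared 91 of their 121 bases each. In the 3′-UTR, 330 bases before the last base, CCI had 7.58 and sham 7.02 (log2 ratio 0.11), and in exon 9 of 11, CCI had 3.04 and sham 2.17 (log2 ratio 0.49). A sham peak of 121 bases at 3.91, annotated in exon 8 of 11, had no CCI counterpart. No region of *Grm8* was listed as differential.

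**Figure D3:**
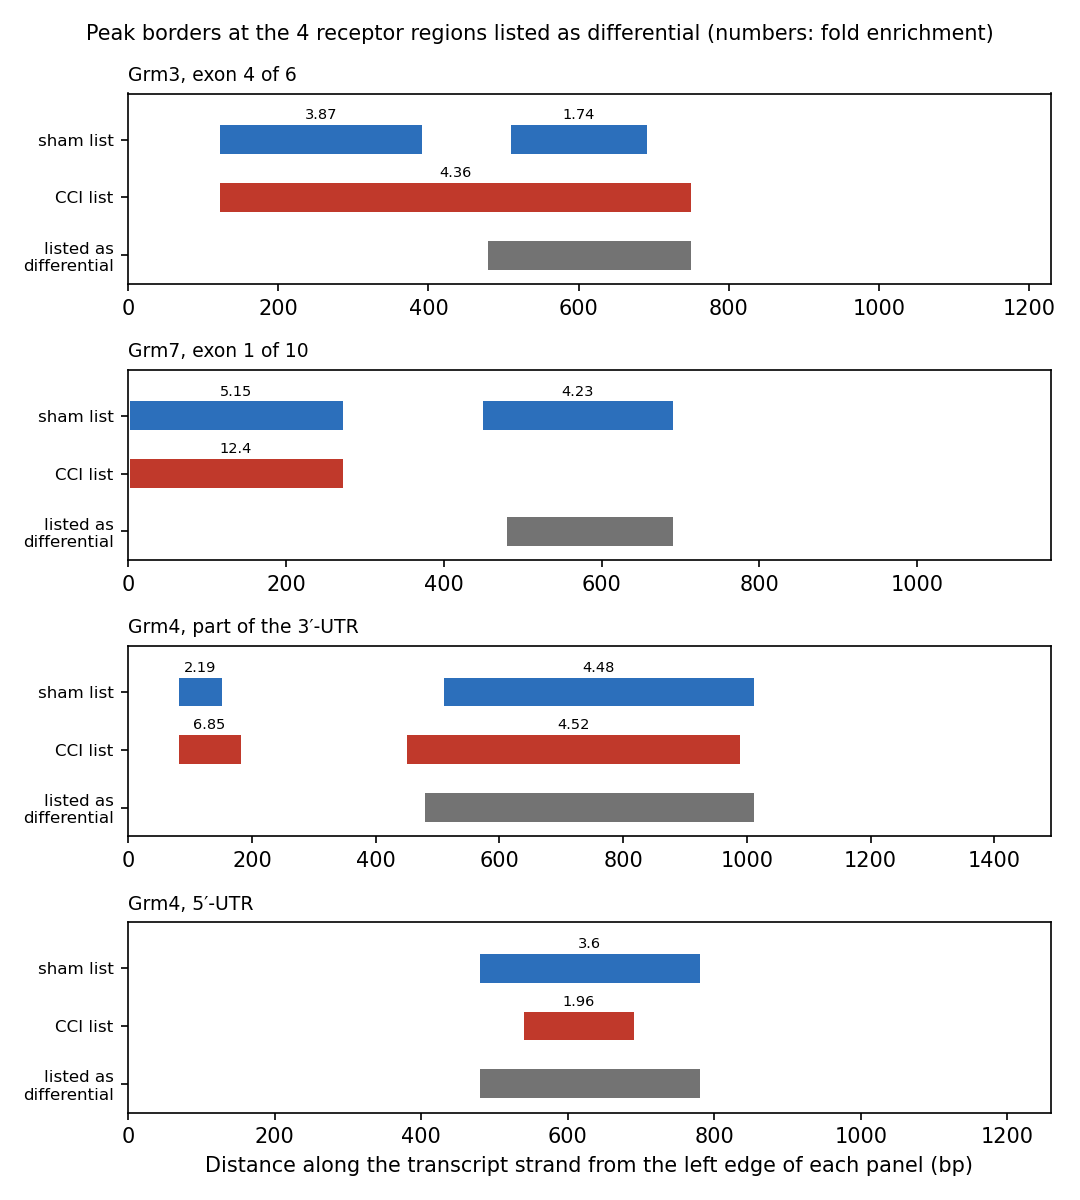
Borders of the exonic blocks in the sham list (blue), the CCI list (red) and the differential table (grey) at the 4 receptor regions that the table lists, drawn 5′ to 3′ in bp, with the fold enrichment of the whole peak above each block. In *Grm3* a wide CCI peak covers both sham peaks, in *Grm7* the listed region has a sham peak only, and in the 3′-UTR of *Grm4* the values are 4.48 and 4.52.

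Read by group, the 10 pairs of group III had a median log2 ratio of 0.46 and 8 were higher in CCI. Of the 5 pairs of group II, 4 were higher, with a median of 0.17, and of the 3 *Grm5* pairs, 1 was higher, with a median of -0.22. Over all pairs, 51.8% were higher, with a median of 0.03. Group II holds 4 pairs of *Grm3* and 1 of *Grm2*, and group I is *Grm5* alone, so these values describe few genes. Both pairs annotated as 5′-UTR in CCI were at least 2-fold higher, but the third 5′ site of the family, in *Grm4*, was lower, so the 5′ sites did not share a direction. Among all 4093 such 5′-UTR pairs, 11.5% were at least 2-fold higher and 11.9% at least 2-fold lower. Sites within 1 gene also spread, by 1.65 on the log2 scale in *Grm7*, 1.73 in *Grm8* and 1.30 in *Grm4*. Peaks of 1 gene share their transcripts and libraries and are not replicates.

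In the differential table, 3 of the 6 receptors had a row, beside 25.3% of all genes with a peak. By pairs, 3 of 18 overlapped a row, beside 15.8% of all pairs. None of the 3 pairs at or above 2-fold was among them. None of the 44 receptor peaks lay over another gene of the RefSeq table.

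The signalling partners were taken from lists of known components, and the strongest peak of each gene was compared. This measure can set peaks at different sites against each other, as it does for *Grm2* and *Grm8* and for those genes named so in what follows. Of the 6 scaffolds, which tether the receptors in the postsynaptic density, 4 were higher in CCI and 2 lower, with a median log2 ratio of 0.39. The largest differences were *Homer3*, with 24.4 in sham against 8.34 in CCI (log2 ratio -1.55), and *Homer1*, with 16.3 and 32.3 (log2 ratio 0.99), both of which bind group I receptors directly. The *Homer3* peaks were at different sites, and the median of its 4 shared pairs was -0.50. The 3 shared pairs of *Homer1* had a median of -0.02. Over the 24 shared pairs of the list the median was -0.02. *Shank1*, *Shank2* and *Shank3* had rows in the differential table.

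Of the 8 G protein subunits, 3 were higher and 5 lower, with a median of -0.16. *Gna11*, which like *Gnaq* encodes a Gq family subunit, had 36.0 in sham against 7.41 in CCI (log2 ratio -2.28), and *Gnai2*, a Gi subunit, had 310 and 468 (log2 ratio 0.59). The *Gna11* peaks were at different sites, and the median of its 2 shared pairs was -0.25. The 4 shared pairs of *Gnai2* had a median of 0.13. Over the 32 shared pairs of the list the median was 0.18. *Gnaq*, *Gna11*, *Gnao1*, *Gnb1* and *Gnb5* had rows in the differential table. Among the 12 effectors, 8 were higher and 4 lower, with a median of 0.28. *Itpr1*, the receptor that releases calcium from the endoplasmic reticulum, had a CCI value of 3.69 and a sham value of 18.6 (log2 ratio -2.33), but these were an exonic and a 5′-UTR peak, and its 2 shared pairs had a median of 0.19. The median over the 40 shared pairs of the effectors was 0.06. *Plcb1*, *Plcb4*, *Adcy5*, *Adcy8*, *Prkca* and *Kcnj3* had rows in the table.

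Of the 13 regulators and binding partners found in the tables, 7 were higher and 6 lower, with a median of 0.04. *Arrb1*, which encodes an arrestin, had 26.7 in sham against 9.90 in CCI (log2 ratio -1.43), and *Rgs4*, a brake on Gq and Gi signalling, had 5.42 and 13.0 (log2 ratio 1.26). The median over the shared pairs of the gene was -0.02 in *Arrb1* (5 pairs) and 0.91 in *Rgs4* (3 pairs). The 40 shared pairs of these regulators had a median of -0.02. *Rgs4*, *Grk2*, *Grk3*, *Arrb1*, *Ncdn*, *Pick1*, *Elfn2* and *Siah1a* had rows in the differential table. Of the glutamate transporters, 4 had peaks in both lists, and 2 were higher and 2 lower (median 0.21). The largest differences were *Slc1a3*, the astrocyte transporter, with 14.2 in sham against 56.8 in CCI (log2 ratio 2.00), and *Slc1a1*, a neuronal one, with 12.8 and 7.01 (log2 ratio -0.87). The 3 shared pairs of *Slc1a3* had a median of 0.34, and *Slc1a1* had 1 shared pair, at -0.87. The 12 shared pairs of the transporters had a median of 0.00. *Slc1a2*, *Slc1a3* and *Slc17a6* had rows in the table. *Slc17a7*, a vesicular transporter gene, had 1 peak, in sham.

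Other receptor families were set beside the metabotropic receptors. Of the 3 other class C receptor genes with a peak (*Gabbr1*, *Gabbr2* and *Gprc5b*), 1 had more sham than CCI peaks, and the list totalled 17 sham and 16 CCI peaks. All 3 had rows in the differential table, beside 25.3% of all genes with a peak. *Gabbr2*, a GABA-B receptor subunit, had 24.4 in sham and 15.7 in CCI at its strongest peak (log2 ratio -0.64), while *Gabbr1* had 28.2 and 22.4 (log2 ratio -0.33). The *Gabbr2* peaks were at different sites, and its 3 shared pairs had a median of -0.21. The 7 shared pairs of *Gabbr1* had a median of 0.10. The 16 shared pairs of the list had a median of 0.02. Of the 15 ionotropic glutamate receptor genes, 4 had more sham peaks and 5 had more CCI peaks, with 55 peaks in sham and 57 in CCI. Their strongest peaks were higher in CCI in 5 genes and lower in 10 (median log2 ratio -0.37), against 5 higher and 1 lower in the metabotropic family (median 0.50). The median over all genes in both lists was 0.00. At shared sites the order did not hold, with a median log2 ratio of 0.25 over the 42 ionotropic pairs (5 at least 2-fold higher, 1 at least 2-fold lower) beside 0.23 over the 18 metabotropic pairs. The strongest peaks were at different sites in 5 of the 15 ionotropic genes and in 2 of the 6 receptors. *Grin2a* had no shared pair, with 2 exonic peaks in sham (strongest 4.48) and 2 in the 3′-UTR in CCI (strongest 1.79). *Grik2* had 11.6 in sham and 5.25 in CCI at different sites of the 3′-UTR (log2 ratio -1.14), and its 2 shared pairs had a median of 0.23. *Gria1*, *Gria2*, *Gria3*, *Gria4*, *Grin1*, *Grin3b*, *Grik3* and *Grik5* had rows in the table. All of these values are descriptions of 1 IP and 1 input library per group.

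**Figure D4:**
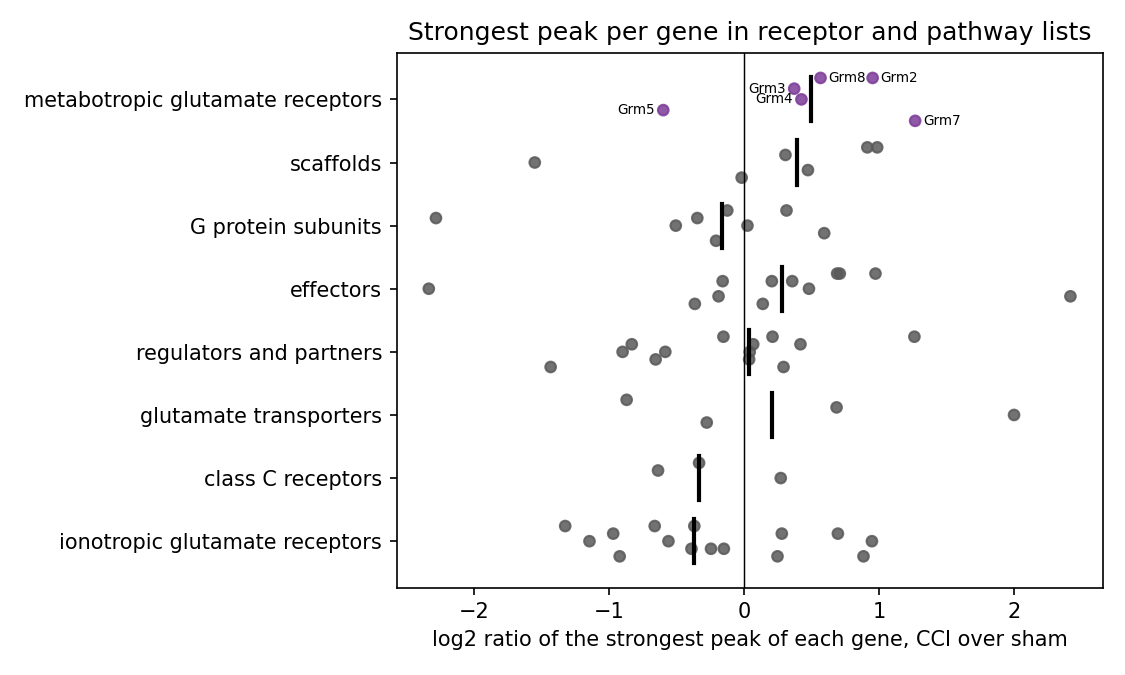
The log2 ratio (CCI over sham) of the strongest peak of each gene, by list, with vertical bars at the list medians and small vertical offsets for legibility. The receptors are in purple, 5 of 6 to the right of 0 with *Grm5* at -0.60, the other lists spread to both sides, and the peaks compared can be at different sites (as in *Grm2* and *Grm8*).

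Among the 61 genes of these lists with peaks in both groups, likeness to a receptor was measured as the distance in log2 fold enrichment of the strongest peak over the 2 conditions. *Rgs4* was the nearest to *Grm7* (distance 0.10, with 5.42 in sham and 13.0 in CCI against 5.15 and 12.4) and to *Grm8* (0.49). *Kcnj6* was nearest to *Grm2* (0.21), *Slc1a1* to *Grm5* (0.27) and *Ncdn* to both *Grm4* (0.41) and *Grm3* (0.50). With 2 conditions and 1 value in each, such likeness rests on few numbers.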

How the data were processed

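MeRIP-seq was done on spinal cord of CCI and sham mice, with 1 IP and 1 input library per group. The submitters' processing notes name fastp, HISAT2, HOMER, ChIPseeker and the build GRCm38, whereas the methods of the study name Cutadapt, bowtie, MACS2 and ChIPseeker, and the columns deposited by the authors are named as exomePeak names them. How library depth was scaled and whether strand was used in peak calling are not given in the sources used here.

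The fold enrichment deposited by the authors is a ratio of IP over input per peak. The deposited log10 p-values and false discovery rates of IP against input were handled as a score, since some are minus infinity. The differential table also holds the authors' log2 fold change, p-value and false discovery rate of CCI against sham. These were not used, and the table served only for which regions it lists.

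Exonic blocks were compared between the lists with a minimum overlap of 1 bp, and shared pairs were reciprocal best partners by shared bases over the union. The log2 ratio is that of the deposited fold enrichments. As each group has 1 library of each kind, no p-value was computed. The strongest peak of a gene is its highest fold enrichment in a list. The RefSeq table of GRCm38.p6 was used to look for other genes under the peaks. The GGACT motif was not searched, because no genome sequence was used here. The text names the 6 receptors with all their peaks and, from each other list, up to 2 genes with the largest absolute log2 ratio of the strongest peak and every gene with a differential row, except for items that are not reported here. The receptors, the lists and the alternatives were chosen with earlier results of these data known. Pairing was tested on simulated data. Tables were read with pandas 2.3.3 and numpy 2.4.6 under Python 3.11.15, and plots were drawn with matplotlib 3.10.9.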

Additional observations from a re-analysis of the deposited data

How the results depend on the processing

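No paired analysis was possible because the result comes from no test, with a single IP and input library in CCI and in sham. Of 39 values under alternatives, 35 moved by at most 1.5 times (counts) or 0.1 (log2 ratios). The number of CCI receptor peaks with no sham partner went from 0 to 1 with a false discovery rate below 0.01, to 2 when peaks below a 2-fold enrichment were dropped, and to 1 with an overlap of 50% of both peaks, because these settings admit fewer peaks or overlaps. The number of pairs lower in CCI went from 0 at 2-fold to 3 at 1.5-fold, beside 16.4% of all pairs. With an overlap of 50%, 9 sham peaks had no CCI partner in place of 6. Pairs over a differential row went from 3 to 2 with that overlap and with a fold enrichment of at least 2. The median log2 ratio of the receptor pairs lay between 0.17 and 0.30. Pairs at least 2-fold higher numbered 2 with the false discovery rate below 0.01, where the sham peak of *Grm8* was lost, 2 after centring on the median of all pairs, where *Grm2* fell under the limit, and 4 with overlap by whole span. The share of peaks with GGACT, with its alternatives, was not run. The fold enrichments come from different inputs and borders, and their error is unknown.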
